A study of Homo sapiens with 6 samples.

Results

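FOSL2 and JUNB binding was examined around 9 genes that protect cells from oxidants and that are classical targets of the transcription factor NRF2: GCLC, GCLM, SLC7A11, TXNRD1, SRXN1, NQO1, HMOX1, ME1 and OSGIN1. A binding region belonged to a gene when at least 1 of its bases lay within 50 kb of the gene body. By this rule 55 of the 75703 FOSL2 regions and 27 of the 40061 JUNB regions lay at the 9 genes, out of 19974 protein-coding genes. The regions came from chromatin immunoprecipitation followed by sequencing in HaCaT, a keratinocyte line from human skin that became immortal without added oncogenes, with libraries prepared by tagging the precipitated chromatin with a transposase. There were 3 libraries for FOSL2 and 3 for JUNB, with a different antibody for each factor, and the labels give no treatment, genotype or time that distinguishes the cells. The labels do not say whether the libraries came from separate cultures. The authors combined the 3 libraries of a factor into 1 list, so no value has a replicate error, the depth is unknown, and every comparison is a description of these 2 lists without a test. Binding regions carry no marker expression, so the cell type stands as labelled.

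NRF2 is held in the cytoplasm by KEAP1 and degraded until oxidants or electrophiles modify KEAP1. It then enters the nucleus, pairs with a small MAF protein and binds the antioxidant response element, whose core letters are TGACNNNGC. FOSL2 and JUNB are subunits of AP-1, a dimer that binds TGACTCA. The start of both motifs is the same, and the letters TGACTCAGC satisfy both at once, so that AP-1 and NRF2 can meet at 1 element. Most of the 9 genes act in making and recycling glutathione and thioredoxin, detoxifying quinones and haem or supplying NADPH.

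The question at the gene starts was whether the 2 AP-1 subunits lay where the antioxidant response element letters were. RefSeq promoter windows (GRCh38.p14, 250 bases before to 50 after a start, same chromosome coordinates as hg38) were found for 7 of the 9 genes and 8 starts, TXNRD1 having an outer and an inner start. HMOX1 and SLC7A11 had no entry. The letters TGACTCA, TGACGTCA (the related cyclic AMP response element), TGACNNNGC and TGACTCAGC were searched on both strands. A TGACTCAGC match is also a match of TGACTCA and of TGACNNNGC. Antioxidant response element letters were found in 4 of the 8 windows, at both TXNRD1 starts, GCLM and ME1. They were found in 13.8% of 22156 promoter windows of protein-coding genes. AP-1 letters were found in 2 of 8, at OSGIN1 and ME1 (4.02% of windows), the joint letters at ME1 only (0.492%) and TGACGTCA in none (2.26%). The windows of NQO1, SRXN1 and GCLC held none of these letters. Sequence outside promoter windows was not searched, so this does not show that these genes lack such letters further from the start. A match is a description of the letters and not evidence of a bound site.

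The 4 sequences below are the 250 bases before a start, shown because they contrast starts that both factors covered (OSGIN1, GCLM and the inner TXNRD1 start) with one that neither did (ME1). Each reads 5′ to 3′ on the strand of its gene, with the motif letters in capitals. OSGIN1 is at chr16:83952990-83953239 on the plus strand, GCLM at chr1:93909431-93909680 on the minus strand, the inner TXNRD1 start at chr12:104286782-104287031 on the plus strand and ME1 at chr6:83431052-83431301 on the minus strand.
OSGIN1: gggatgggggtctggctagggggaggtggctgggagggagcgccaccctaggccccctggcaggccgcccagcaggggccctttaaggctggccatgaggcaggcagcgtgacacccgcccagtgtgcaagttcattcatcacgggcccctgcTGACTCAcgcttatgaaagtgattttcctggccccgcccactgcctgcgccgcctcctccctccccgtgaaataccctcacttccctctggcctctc
GCLM: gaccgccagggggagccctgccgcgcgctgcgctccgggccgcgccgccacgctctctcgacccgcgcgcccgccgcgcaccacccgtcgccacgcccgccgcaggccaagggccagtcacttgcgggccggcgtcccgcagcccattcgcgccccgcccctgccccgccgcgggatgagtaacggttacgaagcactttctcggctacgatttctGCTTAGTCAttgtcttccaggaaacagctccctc
TXNRD1 inner start: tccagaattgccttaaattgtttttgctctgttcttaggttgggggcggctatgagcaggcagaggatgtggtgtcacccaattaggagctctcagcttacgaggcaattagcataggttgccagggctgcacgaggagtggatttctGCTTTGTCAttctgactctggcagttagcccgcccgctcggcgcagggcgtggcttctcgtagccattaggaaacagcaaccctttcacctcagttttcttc
ME1: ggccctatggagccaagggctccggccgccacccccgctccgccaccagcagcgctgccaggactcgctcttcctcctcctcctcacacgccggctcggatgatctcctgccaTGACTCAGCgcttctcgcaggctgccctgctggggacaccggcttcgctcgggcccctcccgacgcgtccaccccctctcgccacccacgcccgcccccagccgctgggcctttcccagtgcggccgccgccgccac

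The same 4 elements are set out below with 10 bases on either side, all read in the direction that begins with TGAC. Capitals mark the motif letters.
GCLM: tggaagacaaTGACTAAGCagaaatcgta
TXNRD1 inner start: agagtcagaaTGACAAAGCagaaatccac
ME1: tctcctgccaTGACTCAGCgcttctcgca
OSGIN1: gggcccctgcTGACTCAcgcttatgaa
Over the first 27 bases the GCLM and inner TXNRD1 elements were identical at 19 positions, with a run of 11 identical bases. The other 5 pairings had 8 to 14 identical positions. These counts include the motif letters, which match in part because the elements were chosen and aligned by them. The flanks were not counted alone.

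At OSGIN1, which encodes an oxidative stress-induced growth inhibitor, the AP-1 letters lay 94 bp before the start. The FOSL2 summit was 22 bp and the JUNB summit 35 bp from the middle of these letters, and both regions covered them. GCLM encodes the modifier subunit of glutamate-cysteine ligase, the first enzyme of glutathione synthesis. Its antioxidant response element letters lay 30 bp before the start, 41 bp from the FOSL2 summit and 114 bp from the JUNB summit, inside both regions. At the inner start of TXNRD1, which encodes cytosolic thioredoxin reductase, the letters lay 98 bp before the start. Both regions covered them, but the summits lay 603 bp (FOSL2) and 398 bp (JUNB) away. At the outer TXNRD1 start such letters lay 95 and 4 bp before the start, and no region of either list covered them. The nearest summits were 4421 bp (FOSL2) and 4401 bp (JUNB) from the match closer to the start. ME1 encodes cytosolic malic enzyme, a source of NADPH. Its start carried the only joint TGACTCAGC match in the 8 windows, 133 bp upstream, and no region of either list covered it. Sequence at the regions away from the starts was not searched for such matches. The nearest FOSL2 and JUNB summits were 52403 and 165610 bp from that match.

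A shared pair, meaning a FOSL2 and a JUNB region with at least 1 base in common, had both summits within 1 kb of a start at 5 of the 7 genes with a listed start. The same held for 15% of 15812 protein-coding genes. Summits lay before the start by 71 bp (FOSL2) and 144 bp (JUNB) at GCLM, and 72 and 59 bp at OSGIN1. The distances were 357 and 314 bp at SRXN1, 441 and 299 bp at NQO1, and 701 and 496 bp at the inner TXNRD1 start. At SRXN1, NQO1 and the inner TXNRD1 start the summits lay upstream of the searched window. Other listed starts were also close. The NQO1 summits were 274 bp (FOSL2) and 132 bp (JUNB) from the start of NQO1-DT, nearer than to that of NQO1. At GCLM they were 91 and 18 bp from the start of LOC124904221. The JUNB summit there was nearer to that start than to that of GCLM. GCLC had only a weak JUNB region over its start, with a fold enrichment of 2.45 and the summit 9 bp upstream. Over all protein-coding promoter windows that held a summit of each factor, 19.3% had AP-1 letters and 22.6% antioxidant response element letters. Of windows with neither summit, 2.69% and 12.4% did. The joint letters, which count in both, were in 3.04% of windows with both summits and 0.304% with neither. For TGACGTCA the values were 8.89% and 1.36%.

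**Figure D1:**
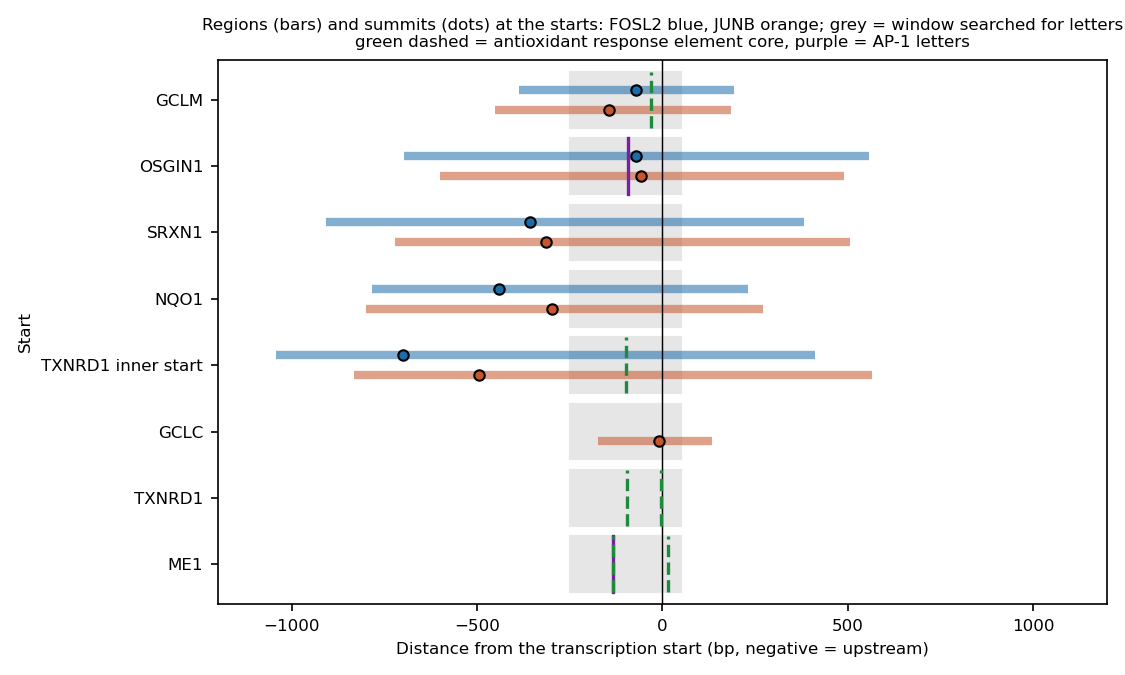
Regions (bars) and summits (dots) of FOSL2 (blue) and JUNB (orange) by distance in bp from 8 transcription starts of 7 genes. Vertical marks show antioxidant response element letters (green, dashed) and AP-1 letters (purple) inside the searched window (grey). Pairs cover the GCLM, OSGIN1, SRXN1, NQO1 and inner TXNRD1 starts, while the ME1 start carries both kinds of letters and no region.

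Over the 50 kb windows, all 9 genes had a FOSL2 region (92.9% of protein-coding genes did), and 8 of 9 had a JUNB region (83.9%). The same 8 had a shared pair (77.6%), so the presence of a region was close to that of genes at large. HMOX1 was the gene without JUNB. Of the FOSL2 regions 22 of 55 were shared (40.0%, 95% Wilson interval 28.1 to 53.2, against 41.1% of the whole list). Of the JUNB regions 22 of 27 were shared (81.5%, 63.3 to 91.8, against 78.5%). The intervals cover counting error only, and regions at 1 gene are not independent. The number of FOSL2 regions per 100 kb of window was above the median of all protein-coding genes (3.40) at 5 of the 9 genes and that of JUNB (1.90) at 4. TXNRD1 was the densest in FOSL2 regions, with 6.82 per 100 kb (percentile 88.2 among genes), and GCLC in JUNB regions, with 4.74 (percentile 86.8). ME1 was the sparsest for FOSL2, with 1.25 (percentile 17.1).

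**Figure D2:**
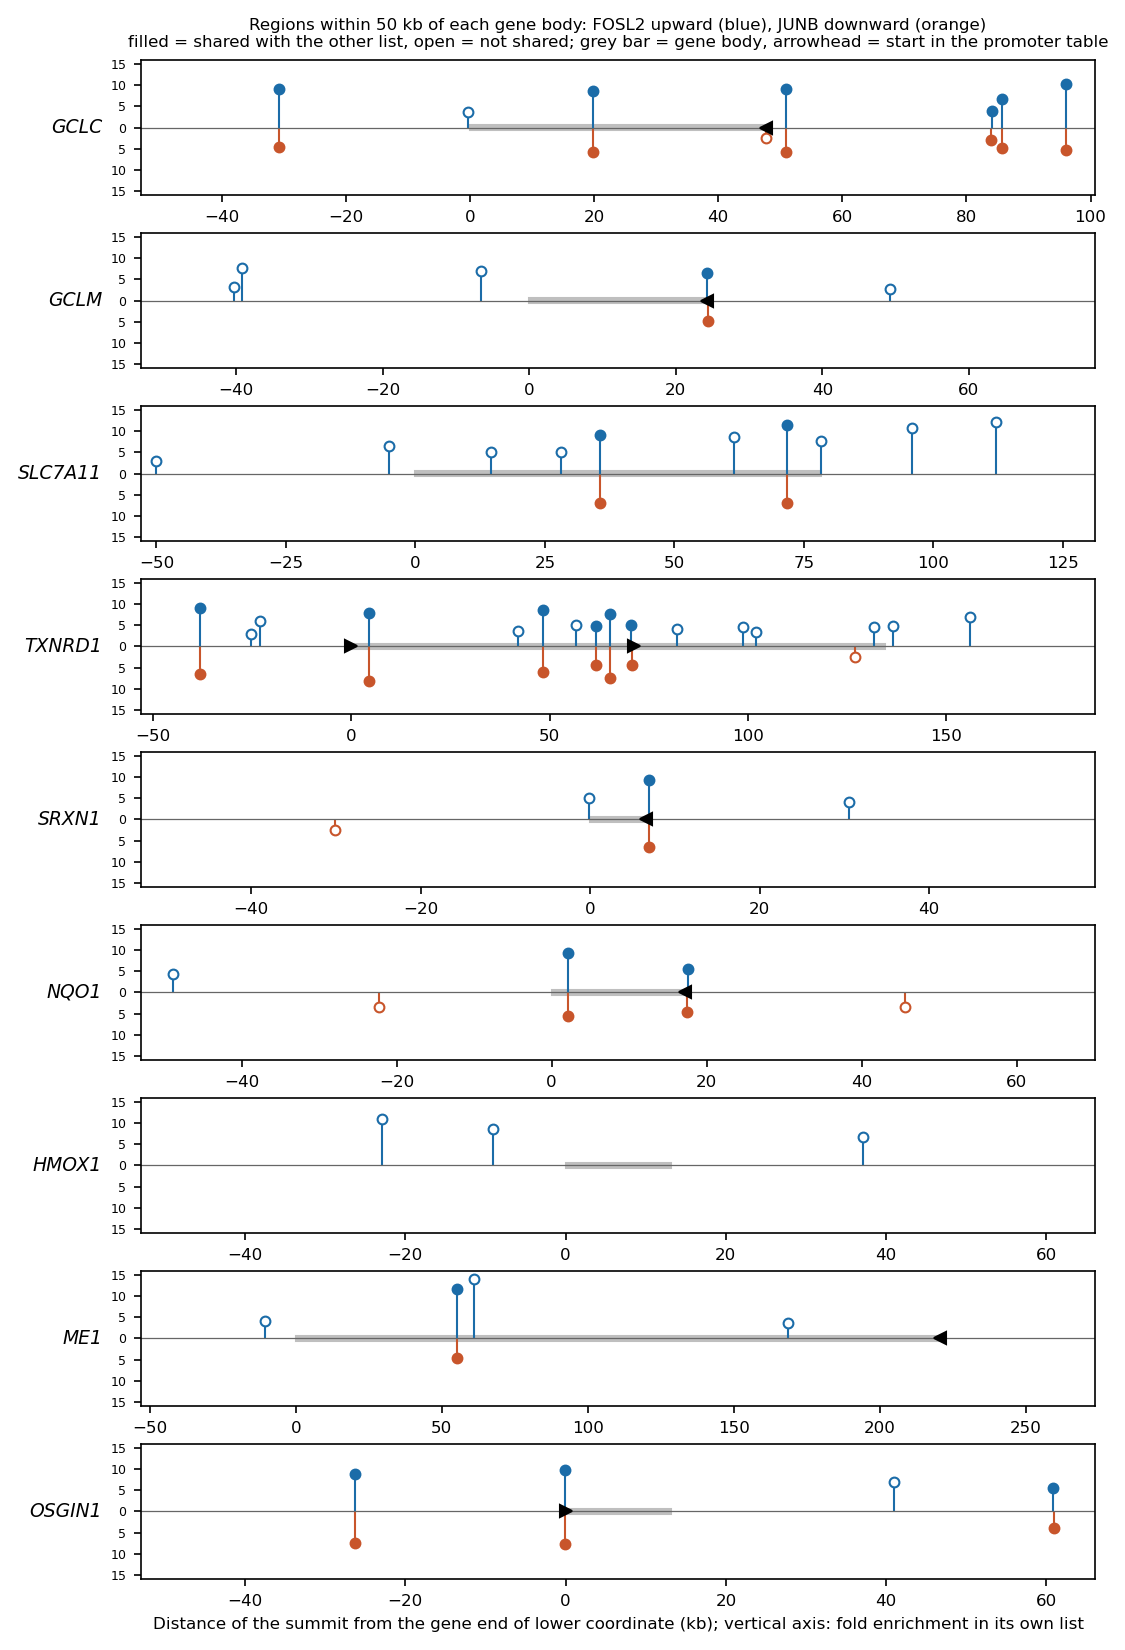
Fold enrichment of every FOSL2 (upward) and JUNB (downward) region within 50 kb of the 9 gene bodies, by distance of the summit in kb from the gene end of lower coordinate. Filled points are shared, open points are not, and arrowheads mark the 8 starts. At 8 genes there are points of both factors, and HMOX1 has FOSL2 points only.

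Fold enrichment is the authors' ratio of signal over background for each region, and its level was compared only within a list. At the 9 genes FOSL2 regions ran from 2.68 to 14.1 with a median of 6.75, against a median of 5.56 over the list. JUNB regions ran from 2.45 to 8.12 with a median of 4.87, against 4.79. Of the FOSL2 regions 7 were above the 90th percentile of their list (fold enrichment 10.1), and of the JUNB regions none was (8.27). The strongest region per gene had a median of 9.87 for FOSL2, against 9.50 over 18561 protein-coding genes with a region. For JUNB it was 6.15, against 6.84 over 16758 genes. The JUNB value was thus below that of genes at large, and 3 of the 8 genes exceeded the median of all genes.

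The first group makes glutathione. GCLC, the catalytic subunit of glutamate-cysteine ligase (chromosome 6, 53497341 to 53545101, minus strand), had 7 FOSL2 and 7 JUNB regions, of which 6 in each list were shared. The pair nearest upstream lay 3176 bp (FOSL2) and 3151 bp (JUNB) before the start, with fold enrichments of 9.03 and 5.89. This was the strongest JUNB region of the gene. A pair inside the gene, 19810 and 19827 bp from its nearer end, had 8.68 and 5.81. The strongest FOSL2 region, 10.3, lay 48333 bp upstream of the start, with a JUNB partner of 5.25. Its other pairs had 9.14 and 4.71 (30814 bp beyond the far end), 6.75 and 4.73 (38045 bp upstream) and 3.84 and 3.04 (36361 bp upstream). All 14 regions had GCLC as their nearest protein-coding gene.

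GCLM (chromosome 1, 93885199 to 93909430, minus strand) had 5 FOSL2 regions and 1 JUNB region. The pair at its start, described above, had fold enrichments of 6.49 and 4.87 and was the only one. The remaining FOSL2 regions were not shared, at 7.73, 6.95, 3.28 and 2.68. The first 3 lay nearer to an end of another gene, BCAR3 or DNTTIP2, than to GCLM. SLC7A11, the cystine importer that supplies cysteine for glutathione (chromosome 4, 138164097 to 138242349), had 10 FOSL2 regions and 2 JUNB regions. Its 2 pairs lay inside the gene, with fold enrichments of 11.4 (FOSL2) and 6.98 (JUNB), 6507 and 6483 bp from an end, and of 9.23 and 6.91, 35548 and 35588 bp from an end. A FOSL2 region 103 bp beyond the end of higher coordinate had 7.57 and no JUNB partner. The highest value, 12.2, lay 33829 bp beyond that end, and one of 10.8 lay 17629 bp beyond it. The nearest JUNB regions were 31.8 and 22.9 kb from these.

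The second group runs on thioredoxin and peroxiredoxin. TXNRD1 (chromosome 12, 104215779 to 104350307, plus strand) had the most regions, 16 of FOSL2 and 7 of JUNB, with 6 pairs. Its strongest JUNB region, 8.12, lay inside the gene, 4397 bp after the outer start, with a FOSL2 partner of 8.02 whose summit was 20 bp away. A second strong pair had 7.75 (FOSL2) and 7.51 (JUNB) and lay deep inside the gene, 65216 and 65250 bp from its nearer end. The strongest FOSL2 region, 9.22, lay 38079 bp upstream of the outer start, with a JUNB partner of 6.46. The pair at the inner start was weaker, with 5.20 and 4.30. Measured to gene ends, TXNRD1 was the nearest protein-coding gene for 8 of the 16 FOSL2 and 3 of the 7 JUNB regions. The others, with the second strong pair and the inner start pair among them, lay nearer to an end of EID3. No region covered the outer start. Of the 10 unshared FOSL2 regions, the highest value was 6.93. SRXN1 encodes sulfiredoxin, which reactivates over-oxidised peroxiredoxins (chromosome 20, 646615 to 653200, minus strand). It had 3 FOSL2 and 2 JUNB regions and 1 pair, the one upstream of its start, with 9.38 and 6.41. These were its highest values in both lists. The other 3 regions ranged from 2.60 to 4.99 and were not shared.

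The third group detoxifies quinones and haem. NQO1 encodes a quinone reductase (chromosome 16, 69709401 to 69726560, minus strand) and had 3 FOSL2 and 4 JUNB regions. The stronger of its 2 pairs was not at the start but inside the gene near the opposite end, 2135 and 2152 bp from it, with fold enrichments of 9.26 and 5.62 and summits 17 bp apart. The pair upstream of the start had 5.56 and 4.61, with summits 142 bp apart. Of the 2 unshared JUNB regions, the one of 3.34 lay 136 bp from an end of NOB1, a ribosome assembly gene next to NQO1. The other had 3.32.

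HMOX1 encodes haem oxygenase 1, which breaks down haem and is also under repression by BACH1 (chromosome 22, 35381096 to 35394207). It had 3 FOSL2 regions, of 10.95, 8.67 and 6.83, all outside the gene, and no JUNB region. The region of 8.67 lay 9064 bp beyond the end of lower coordinate and was the only one with HMOX1 as its nearest protein-coding gene. The regions of 10.95 and 6.83 lay nearer to TOM1 and MCM5. A FOSL2 region without any JUNB region within 50 kb was found for 9.74% of protein-coding genes. The nearest JUNB region was 194.8 kb away on the higher side and 2270 kb on the lower, and 4.96% of protein-coding genes lay as far from a JUNB region. The stretch without JUNB held 6 protein-coding genes. FOSL2 regions in it numbered 6.05 per Mb, against 25.4 per Mb along chromosome 22 (JUNB 17.1). The stretch was bounded by its lack of JUNB regions, and 41.1% of FOSL2 regions overlap a JUNB region. The low FOSL2 density in it is thus partly set by that choice. In the 50 kb window of HMOX1 itself, FOSL2 regions numbered 2.65 per 100 kb (percentile 37.7 among genes). The copy number of this stretch in HaCaT and whether the lists used here hold every region called in it were not tested, so the JUNB count of 0 at HMOX1 does not show that JUNB was unbound there.

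ME1 and OSGIN1 were unlike each other. ME1 (chromosome 6, 83210402 to 83431051, minus strand) is the longest of the 9 genes and had 4 FOSL2 regions and 1 JUNB region. It held the highest FOSL2 value of the set, 14.1 (percentile 99.7 of the list), inside the gene 61140 bp from its nearer end, without a JUNB partner. The nearest JUNB region was 5.35 kb away. That region formed the gene's only pair, with 11.6 for FOSL2 and 4.55 for JUNB and summits 2 bp apart. OSGIN1 (chromosome 16, 83953240 to 83966332, plus strand) had 4 FOSL2 and 3 JUNB regions and 3 pairs. The pair at the start had 9.87 and 7.81, its highest values in both lists. A pair of 8.78 and 7.42 with summits 1 bp apart lay 26340 and 26339 bp upstream, nearer to an end of MLYCD, and one of 5.49 and 3.96 lay on the other side near SLC38A8.

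**Figure D3:**
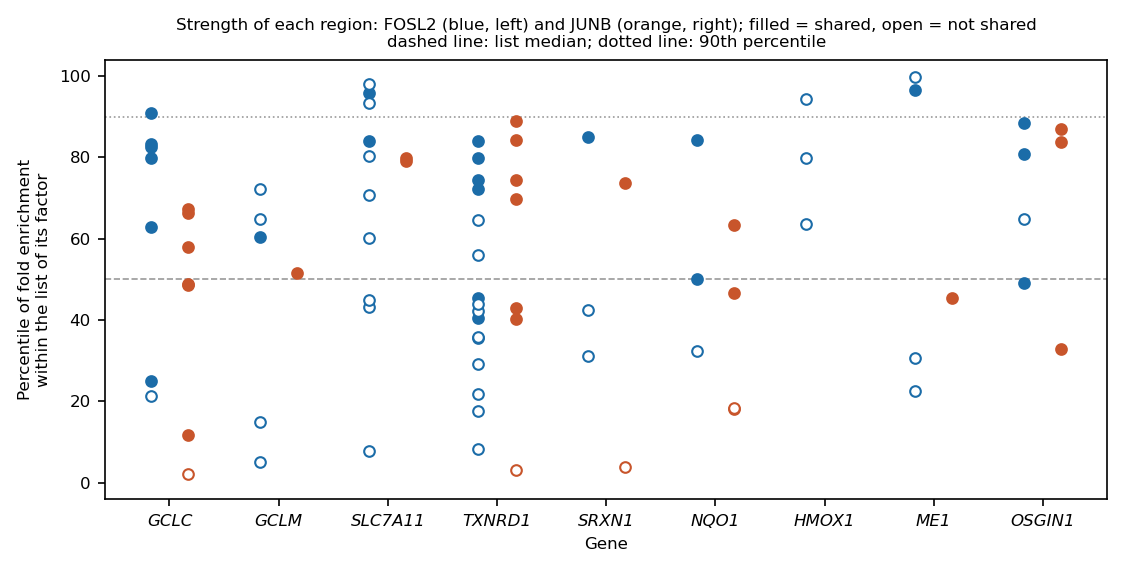
Percentile of the fold enrichment of each of the 55 FOSL2 (blue) and 27 JUNB (orange) regions within the list of its factor, by gene, with shared regions filled and unshared ones open. SLC7A11, HMOX1 and ME1 have open FOSL2 points above the 90th percentile, and no JUNB point lies above it.

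The 7 FOSL2 regions above the 90th percentile lay at SLC7A11 (3), ME1 (2), GCLC (1) and HMOX1 (1). Of these, 3 were shared, whereas 84% of all FOSL2 regions above that percentile were. The 4 without JUNB were those of 14.1 at ME1, 12.2 and 10.8 at SLC7A11 and 10.95 at HMOX1. A missing partner means only that no JUNB region is in the list, since the peak threshold and the details of the overlap between libraries are not known here. At the 9 genes shared FOSL2 regions had a median fold enrichment of 8.73 and unshared ones of 5.03, against 7.85 and 4.40 over the list. Shared JUNB regions had a median of 5.72 and unshared ones of 2.60, against 5.31 and 3.45. The 5 unshared JUNB regions, at GCLC, TXNRD1, SRXN1 and NQO1, did not exceed 3.34.

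In the 22 pairs the summits lay 1 to 205 bp apart, with a median of 24.5 bp, and 17 pairs were within 50 bp. Over all 31460 pairs of the lists the median was 31 bp and 66.4% were within 50 bp. The ratio of JUNB to FOSL2 fold enrichment was ranked among all pairs, because its level has no common scale. The pairs at the 9 genes had a median percentile of 46.2, with 12 below the 50th percentile and 10 above. TXNRD1 pairs ranged from 43.9 to 89.7 and GCLC pairs from 11.2 to 60.8. The ME1 pair was far to the FOSL2 side, at percentile 1.69.

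**Figure D4:**
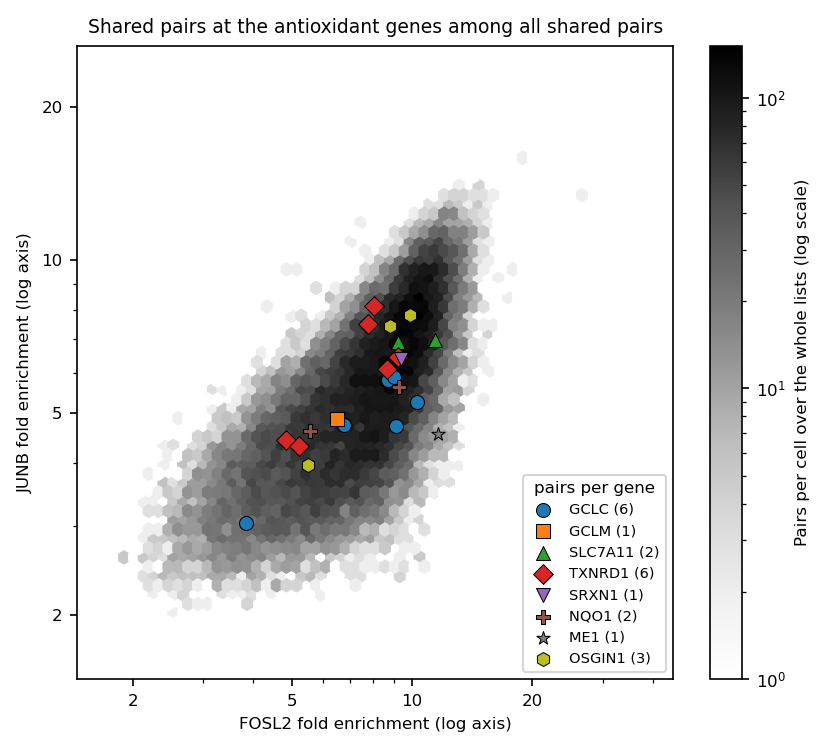
FOSL2 against JUNB fold enrichment (both log axes) of the 22 shared pairs at 8 genes, over all 31460 pairs of the lists in grey. The ME1 pair (11.6 and 4.55) lies at the lower right edge of the cloud. The TXNRD1 pair of highest JUNB value (8.02 and 8.12) lies toward the JUNB side, at percentile 89.7 of the ratio.

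The median distance of a summit to the nearer end of its assigned gene was 25.3 kb for FOSL2 and 28.5 kb for JUNB. Summits lay inside the body of the assigned gene in 21 of 55 and 11 of 27 cases. They lay outside it by more than 10 kb in 22 and 10. A summit outside the assigned gene can lie inside or close to another gene. The JUNB region 28502 bp from NQO1, for example, was 136 bp from an end of NOB1. The same counts were not made over the whole lists. Exons and introns were not separated. Summits within 1 kb of an end of the gene numbered 7 for FOSL2 (12.7%) and 5 for JUNB (18.5%). Over the lists 6.78% and 12.8% of summits lay within 1 kb of an end of any protein-coding gene. These list percentages cover regions at any distance from genes. Those at the 9 genes count only ends of the assigned gene, in regions within 50 kb of it. They are therefore not a like comparison. A pair had both summits within 1 kb of 1 gene end at GCLM, SRXN1, NQO1 and OSGIN1, or 4 of 9 genes, against 14.6% of protein-coding genes. The assigned gene was the nearest protein-coding gene for 36 of 55 FOSL2 and 18 of 27 JUNB regions, and another gene was nearer for 19 and 9. At the 50 kb limit, the outermost FOSL2 regions counted were at 49982 bp from SLC7A11 (2.88) and 48675 bp from NQO1 (4.31), and the first left out were at 51216 bp from GCLM (3.37) and 52833 bp from SLC7A11 (4.19). For JUNB they were at 47878 bp from GCLC (5.25) and 47480 bp from OSGIN1 (3.96), and at 51164 and 55083 bp from GCLM (4.61 and 6.21).

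Other genes of the pathway were looked at in the same way, from a list of 49, of which 48 matched a protein-coding gene. All 48 had a FOSL2 region (92.9% of protein-coding genes), and 47 had a JUNB region (83.9%) and a shared pair (77.6%). The highest values per gene had a median of 10.1 for FOSL2 and 7.07 for JUNB, against 9.50 and 6.84 over all protein-coding genes with a region. A pair with both summits within 1 kb of a gene end was found for 5 of 48, against 14.6% of protein-coding genes. GSTM1, a glutathione transferase named after its values were seen, was the gene without JUNB. Some neighbours share regions, such as the AKR1C, UGT1A and GSTM genes.

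Among the regulators, NFE2L2, which encodes NRF2 itself, had 2 pairs, the stronger with 6.11 (FOSL2) and 5.32 (JUNB), 14886 and 14966 bp inside the gene. KEAP1, its inhibitor, had a JUNB region of 7.41 inside the gene, 555 bp from its end, and its strongest pair (6.84 and 4.67) lay 32426 bp away. Of the subunits of the ligase that ubiquitinates NRF2, CUL3 had a pair of 9.69 and 9.51 and RBX1 one of 11.8 and 10.5. SQSTM1, an adaptor that binds KEAP1, had a pair of 8.90 and 5.97. BACH1, the repressor at the same elements, had its strongest pair 20348 bp outside the gene, with 11.8 and 8.64. The pairs of highest JUNB value at the small MAF partners MAFF, MAFK and MAFG had 12.6 and 9.39, 9.20 and 7.94, and 5.79 and 5.27. A FOSL2 region of MAFG outside that pair reached 7.86. MAFF was the regulator with a pair within 1 kb of an end.

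Of the glutathione and thioredoxin genes, GSS (glutathione synthetase) and GSR (glutathione reductase) had the pairs of highest JUNB value, with 11.4 (FOSL2) and 10.4 (JUNB) and with 10.1 and 7.71. In the NADPH group the corresponding pairs were at TKT (transketolase), which had 11.5 and 11.3 and at PGD (phosphogluconate dehydrogenase), with 11.2 and 8.57. In the iron and haem group BLVRB (a biliverdin reductase) had 9.77 and 7.61 and FTL (ferritin light chain) 11.3 and 7.20. Among detoxification and export genes ABCC1 (a glutathione conjugate exporter) had 9.48 and 9.47 and NQO2 (a quinone reductase) 10.6 and 9.36. All of these pairs but that of GSR lay outside the gene they were assigned to.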

How the data were processed

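Per the submitters' processing notes, which give no order or options, Bowtie2, SAMtools 1.8, Picard 1.89, MACS2, deepTools and hg38 were used. The deposited lists are named as a conservative overlap, 1 per factor, and the sources used here do not give how that overlap was made or which control was used. The deposited lists give per region a linear fold enrichment (a ratio of signal over background), a −log10 q and a summit offset, which were used as the authors deposited them. Only autosomes and X were used, which removed 1 FOSL2 row. Coordinates count from 1.

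Gene bodies and promoter sequences were taken from RefSeq tables of GRCh38.p14, and all 9 genes matched by symbol. Regions were joined to genes, counted and ranked with Python 3.11.15, pandas 2.3.3 and numpy 2.4.6. Wilson intervals came from scipy 1.17.1, and the overlap, window and motif code was tested on simulated data. No test was made. Percentages over all genes were not matched on gene length. The genes and lists were chosen with earlier results of these data known. All 9 genes are named, as are the 9 listed regulators, the 2 genes of each other list with the strongest JUNB region in a pair, and per gene the strongest regions, the strongest pair and the region nearest to the start.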

Additional observations from a re-analysis of the deposited data

How the results depend on the processing

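Of 51 alternatives, 40 stayed within 1.5 times the reported count or, for a share, inside its 95% Wilson interval. These are not independent checks, and some could not move. The number of genes with a region cannot fall at 100 kb, and was already 9 of 9 for FOSL2. The counts of shared FOSL2 and of shared JUNB regions were equal under every alternative. A distance of 10 kb in place of 50 kb gave 33 FOSL2 and 17 JUNB regions, and 100 kb gave 84 FOSL2 regions. With the 10000 regions of highest fold enrichment of each list, 8 FOSL2 and 6 JUNB regions lay in the windows, 2 of them shared in each list, and 5 of 9 genes had a FOSL2 region (44.1% of protein-coding genes), 3 a JUNB region (46%) and 2 a shared one (31.1%). With −log10 q of at least 10, 100% of the 20 JUNB regions were shared. The share over the whole JUNB list at this threshold was not computed. Of all JUNB regions above the 90th percentile of fold enrichment, 97.6% were shared, so this value is not particular to the 9 genes. The number of genes with a shared region was 8 of 9 at 10, 50 and 100 kb (53.3, 77.6 and 87.4% of protein-coding genes), 8 under both stricter definitions of sharing and 7 with −log10 q of at least 10 (70.9%). No paired analysis was possible because each factor has 1 list for its 3 libraries, so no replicate could be left out and the depth is unknown.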
